A study of Mus musculus with 2 samples.

Results

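Interferon gamma (Ifng), the 4 chains of the interferon gamma and type I interferon receptors (Ifngr1, Ifngr2, Ifnar1 and Ifnar2) and the early response genes Irf1 and Socs1 were followed through the cells of the mouse adrenal gland. These 7 genes were taken by symbol from the 32245 gene symbols of the count matrices, and each was matched by 1 row. On GRCm38 (mm10) with GENCODE M21 genes, Ifng lies at chr10:118441046-118445892, Ifngr1 at chr10:19591949-19610229, Irf1 at chr11:53770014-53778374, and on chromosome 16 Ifnar2 at chr16:91372783-91405589, Ifnar1 at chr16:91485238-91507441, Ifngr2 at chr16:91547072-91565623 and Socs1 at chr16:10782240-10785536; all but Socs1 are on the plus strand. Adrenals came from female C57BL/6J mice of the genotype SF1-Cre+;Znrf3Fx/Fx, with 1 library at 6 weeks of age, made from 2 adrenals, and 1 library at 9 weeks, made from 3 adrenals. SF1-Cre acts in steroid-producing cells, where it removes Znrf3, a ubiquitin ligase that clears Wnt receptors from the cell surface, so both ages carry the same deletion and no gland without it was compared. The series follows the change from overgrowth of the cortex to its regression between these ages. Red cells had been lysed, and a sorter kept viable single cells by dye (Ruby-positive, DAPI-negative), so shares of cells describe the sorted suspension and not the gland.

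Interferon gamma is a secreted cytokine, made mainly by activated T cells and natural killer (NK) cells. It binds a receptor of a ligand-binding chain, encoded by Ifngr1, and a signalling chain, encoded by Ifngr2, and kinases bound to these chains pass the signal to transcription factors in the nucleus. Type I interferons signal in a related way through the chains encoded by Ifnar1 and Ifnar2. Irf1 is a transcription factor that is switched on early and carries the response to later genes, and Socs1 is a feedback inhibitor that blocks the kinases.

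After filtering, 8133 cells with 86491599 counts of unique molecular identifiers (UMIs, each standing for 1 captured RNA molecule) remained at 6 weeks, with a median of 11348 UMIs per cell, and 9941 cells with 88777418 UMIs at 9 weeks, with a median of 7029. The libraries shared 26 cell barcodes among the cells kept. Cells were clustered without the 7 genes, and clusters were named "-like" from marker genes. Adrenocortical-like cells made up 51.8% of the 6-week library and 20.7% of the 9-week library, and T/NK-like cells (T, NK and innate lymphoid clusters joined) 4.99% and 11.1%. The 9 cortical markers summed to 23355 and 18175 CPM in adrenocortical-like cells. The 10 T cell markers summed to 5848 and 6501 CPM in T/NK-like cells, and none of these markers was at 0. The classes were named from these same markers, so the sums describe the classes and do not test the names. Levels are in CPM, the UMIs of a gene per 1000000 UMIs of the class, with exact 95% Poisson intervals. Where a pair of values is given without ages, the first is the 6-week and the second the 9-week library. With 1 library per age there is no test between ages: intervals and ratios with their limits cover counting error only, and differences between animals cannot be told apart from differences between ages. A difference was counted when the levels, each with 5 CPM added, stood at least 1.5-fold apart.

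Ifng was held mostly by T/NK-like cells at both ages, and their level per UMI differed by less than counting error although the class was a larger share of the cells at 9 weeks. T/NK-like cells held 144 of the 154 Ifng UMIs at 6 weeks, or 93.5% (exact binomial interval 88.4 to 96.8%), and 413 of 489 at 9 weeks, or 84.5% (80.9 to 87.6%). Within the class, Ifng measured 80.6 CPM (68.0 to 94.9) in the 6-week library and 79.0 CPM (71.6 to 87.0) in the 9-week library. The ratio of 9 over 6 weeks was 0.980, with limits of 0.808 and 1.19. Over all cells kept, the 9-week library held 49.2 Ifng UMIs per 1000 cells (44.9 to 53.7) against 18.9 (16.1 to 22.2) in the 6-week library, which is 2.60 times as many (2.16 to 3.13). The T/NK-like share of cells was 2.23 times as large, and Ifng UMIs per T/NK-like cell stood at 0.355 and 0.373.

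The remaining classes held few Ifng UMIs or none. Endothelial-like cells had 0 Ifng UMIs in 1532 cells at 6 weeks and 0 in 1594 cells at 9 weeks, which allows up to 0.196% and 0.188% of cells with a UMI. Macrophage-like and dendritic-like cells each had 0 UMIs at 6 weeks and 5 at 9 weeks, and adrenocortical-like cells 2 and 4. Monocyte-like cells had 5 Ifng UMIs at 9 weeks, in 2 cells, and B-like and neutrophil-like cells had 3 each. Clusters left unnamed held 8 Ifng UMIs at 6 weeks and 51 at 9 weeks. Of those 51, 21 lay in cluster 29, where B cell and T cell genes lead together, and 20 in cluster 25, where T cell markers stood beside genes of dendritic cells such as Xcr1 and Clec9a.

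Ifng was uneven from cell to cell within T/NK-like cells. At least 1 Ifng UMI was found in 67 of the 406 T/NK-like cells (16.5%) at 6 weeks and in 202 of 1106 (18.3%) at 9 weeks. With every cell thinned to 2000 UMIs, which left out 55 and 79 shallower cells, the shares were 11.7% (8.51 to 15.5%) and 10.8% (8.98 to 12.9%). For comparison, macrophage-like cells, which were deeper, had a thinned share of 0% at 6 weeks and 0.0932% at 9 weeks. The richest cell carried 20 Ifng UMIs at 6 weeks and 14 at 9 weeks, against a median of 1 in cells with any.

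**Figure D1:**
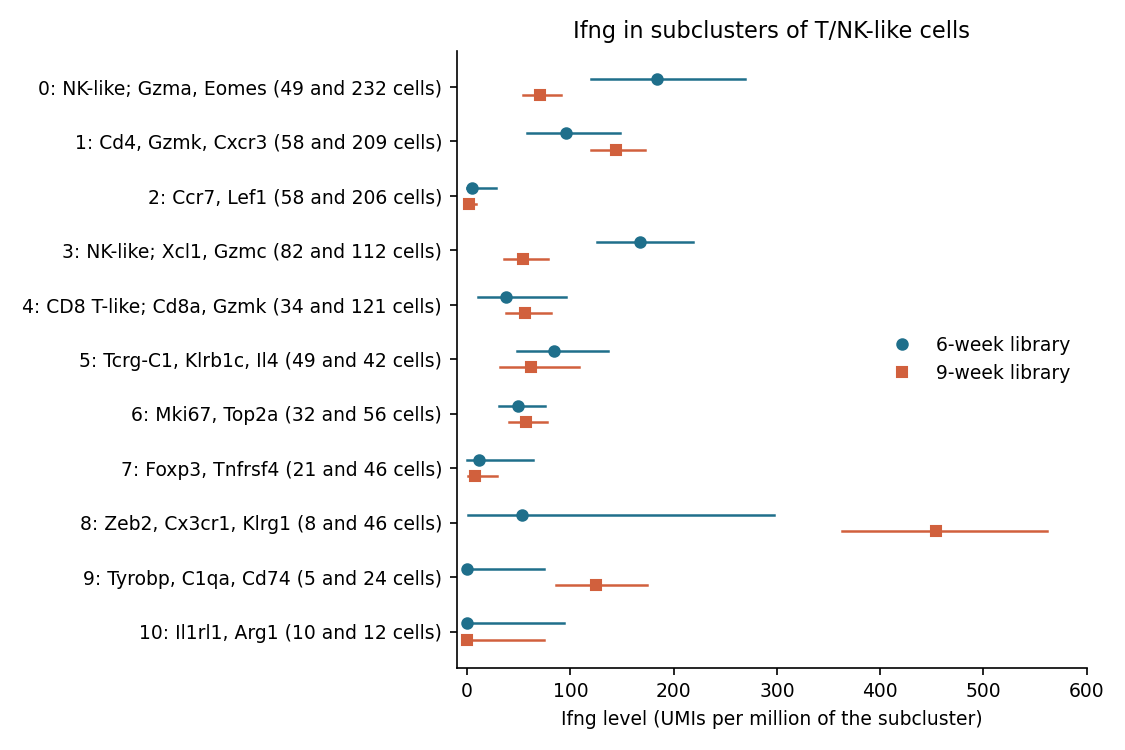
Ifng level in CPM (horizontal axis) in the 11 subclusters of T/NK-like cells (vertical axis, with leading or marker genes and the number of cells at 6 and 9 weeks). Points are library values and lines exact 95% Poisson intervals. Both NK-like subclusters stood lower at 9 weeks, and subcluster 8 stood highest at 454 CPM.

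Subclusters of the class differed in direction. The 2 NK-like subclusters, which hold Ncr1 and Klrb1c, went from 172 CPM of Ifng (137 to 215) to 64.2 CPM (51.5 to 79.1), a ratio of 0.372 with limits of 0.272 and 0.511. Subcluster 0, rich in Gzma (granzyme A), had 184 and 70.5 CPM, and subcluster 3, which also holds Gzmc, had 167 and 53.9 CPM. Subcluster 3 was less clearly NK-like. The T cell genes Cd3e and Trac were found in 21.6% and 19.6% of its cells, against 1.42% and 6.05% in subcluster 0. The NK marker Eomes was found in 8.76%, against 46.3%. At 6 weeks 1 cell of subcluster 3 carried 20 of its 54 Ifng UMIs. Without it the level was 107 CPM (74.0 to 149), an interval that reaches that of the 9-week value with all cells (35.8 to 78.0). With the richest 9-week cell of subcluster 3 left out as well, the 9-week level was 46.6 CPM (29.9 to 69.4), a ratio of 0.437 (0.248 to 0.758). Without the richest cell of each library the joined NK-like levels were 131 CPM (99.6 to 168) and 56.3 CPM (44.4 to 70.4), a ratio of 0.431 (0.304 to 0.615). In the thinned cells, an Ifng UMI was found in 20.5% (13.5 to 29.2%) and 11.5% (8.21 to 15.6%) of NK-like cells.

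The 8 subclusters with Cd3e, a chain of the T cell receptor complex, in most of their cells stood higher at 9 weeks when joined, largely through 1 of them. Their Ifng level was 49.9 CPM (38.4 to 63.7) and 85.4 CPM (76.3 to 95.2), and the ratio of 1.71 had limits of 1.31 and 2.27. Without subcluster 8 the levels were 49.8 and 66.1 CPM, a ratio of 1.33 (1.00 to 1.78) that was no longer past 1.5-fold, and without subclusters 8 and 9 the ratio was 1.18 (0.887 to 1.59). Subcluster 8, led by Gzma, Zeb2, Cx3cr1, S1pr5 and Klrg1, genes of circulating effector lymphocytes, with both Cd8b1 and Cd4 among its leading genes, had 1 Ifng UMI in 8 cells at 6 weeks and 86 UMIs in 46 cells at 9 weeks, or 53.3 CPM (1.35 to 297) and 454 CPM (363 to 561). Those 46 cells made up 4.16% of the 9-week T/NK-like cells and held 20.8% of their Ifng UMIs.

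Subcluster 1, with Cd4, Cd40lg, Icos and Gzmk, held 20 and 119 Ifng UMIs, and its level was 95.7 CPM (58.5 to 148) and 144 CPM (119.5 to 173), intervals that overlap. It held 28.8% of the T/NK-like Ifng UMIs at 9 weeks, more than any other subcluster. Subcluster 9 had 0 Ifng UMIs in 5 cells at 6 weeks and 34 in 24 cells at 9 weeks. Its leading genes included C1qa, C1qb and Apoe of macrophages, at a C1qa level of 1171 CPM, and it was left unnamed. Its markers matched NK cells best, with Ncr1 in 37.9% and Klrb1c in 41.4% of its cells. It was joined with the Cd3e subclusters because Cd3e was found in 65.5% of its cells. The CD8 T-like subcluster 4 had 37.6 and 56.3 CPM, the dividing subcluster 6 (Mki67, Top2a) 49.6 and 56.7 CPM, and subcluster 5, led by Xcl1, Klrb1c and Tcrg-C2, 83.9 and 62.2 CPM. In these 3 subclusters the intervals of the ages overlapped. Subcluster 2, with Ccr7 and Lef1, genes of resting T cells that travel to lymph nodes, had 5.04 and 2.37 CPM, and subcluster 7, which holds Foxp3 of regulatory T cells, 11.5 and 8.09 CPM.

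Cells with an Ifng UMI also held more of the chemokine genes Ccl3, Ccl4 and Xcl1 than the other T/NK-like cells. The sets differed in makeup: NK-like cells were 33 of the 67 Ifng-positive and 98 of the 339 other cells at 6 weeks, and 60 of 202 and 284 of 904 at 9 weeks. Ccl4 stood at 1108 CPM in the Ifng-positive cells and 248 CPM in the others at 6 weeks, 4.47 times as high (3.87 to 5.17), and at 687 and 243 CPM at 9 weeks, 2.82 times as high (2.57 to 3.10). Its relative Ccl3 was 4.01 times as high at 6 weeks and 3.09 times at 9 weeks, and Xcl1, which draws in dendritic cells, 1.59 and 1.43 times. Within NK-like cells the Ccl4 ratio was 5.86 (4.97 to 6.92) at 6 weeks and 3.97 (3.58 to 4.39) at 9 weeks. Within the joined Cd3e subclusters it was 0.574 (0.329 to 0.947) and 1.44 (1.09 to 1.89), so the 6-week excess lay in NK-like cells. Ccl3 there had 0 UMIs in the Ifng-positive cells at 6 weeks and a ratio of 1.02 (0.447 to 2.14) at 9 weeks. Xcl1 was higher in the Ifng-positive cells of both groups, with ratios of 1.26 and 1.70 in NK-like cells and 2.44 and 1.48 in the Cd3e subclusters. Egr2, an immediate early gene of receptor signalling, had a ratio of 2.68 at 6 weeks, with limits of 0.866 and 7.80 that include 1, and 5.53 at 9 weeks (2.55 to 12.5). In NK-like cells the Egr2 ratio was 5.75 (1.12 to 37.1) at 6 weeks and 12.3 (3.65 to 53.1) at 9 weeks. In the Cd3e subclusters it was 1.09 (0.111 to 5.74) and 3.17 (1.04 to 9.68). Cd69, an early activation marker, had ratios of 2.55 (1.88 to 3.46) and 1.13 (0.932 to 1.37). Within NK-like cells the Cd69 ratio was 2.12 (0.763 to 5.53) at 6 weeks and 1.98 at 9 weeks, where its limits excluded 1. Within the Cd3e subclusters it was 2.605 at 6 weeks, with limits that excluded 1, and 0.952 (0.763 to 1.18) at 9 weeks. Irf1 was alike in both sets of cells, at 1.02 and 1.01 times, and Ifngr2 had 0 UMIs in the Ifng-positive cells at 6 weeks and 15 UMIs, 12.9 CPM, at 9 weeks. Median depths were 3556 and 3542 UMIs at 6 weeks, and 4434.5 and 3918.5 at 9 weeks, and the cells come from the same library at each age.

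Of 13 genes listed for the induction of Ifng, 7 were measured in T/NK-like cells (at least 10 CPM in 1 library and 10 UMIs in all). Of these, 3 receptor genes for Ifng-inducing cytokines stood higher at 9 weeks, Il12rb2 (17.9 and 33.3 CPM), Il18rap (64.4 and 106 CPM) and Il18r1 (65.0 and 100.4 CPM), and 0 stood lower, where 3.46% of the 7996 genes measured in the class were past 1.5-fold higher and 3.03% lower. Tbx21 and Stat4, transcription factors of interferon gamma production, had 71.1 and 80.2 CPM, and 83.4 and 80.4 CPM. The median log2 ratio of the 7 genes was 0.16, against 0.05 for all genes measured. The mix of the class differed between the ages. Subcluster 8, with Il18rap among its leading genes, was 1.97% and 4.16% of T/NK-like cells, and subcluster 0 was 12.1% and 21.0%. The part of this mix in the receptor levels was not tested.

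Receptor chains were found in all 8 classes. Of 32 pairs of a receptor gene and a class, 1 stood past 1.5-fold higher at 9 weeks and 3 lower, against 7.73% higher and 6.52% lower over all pairs of a gene and a class that were measured. The other receptor pairs lay within 1.5-fold between the ages, while levels of 1 chain differed by more than that between many classes.

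**Figure D2:**
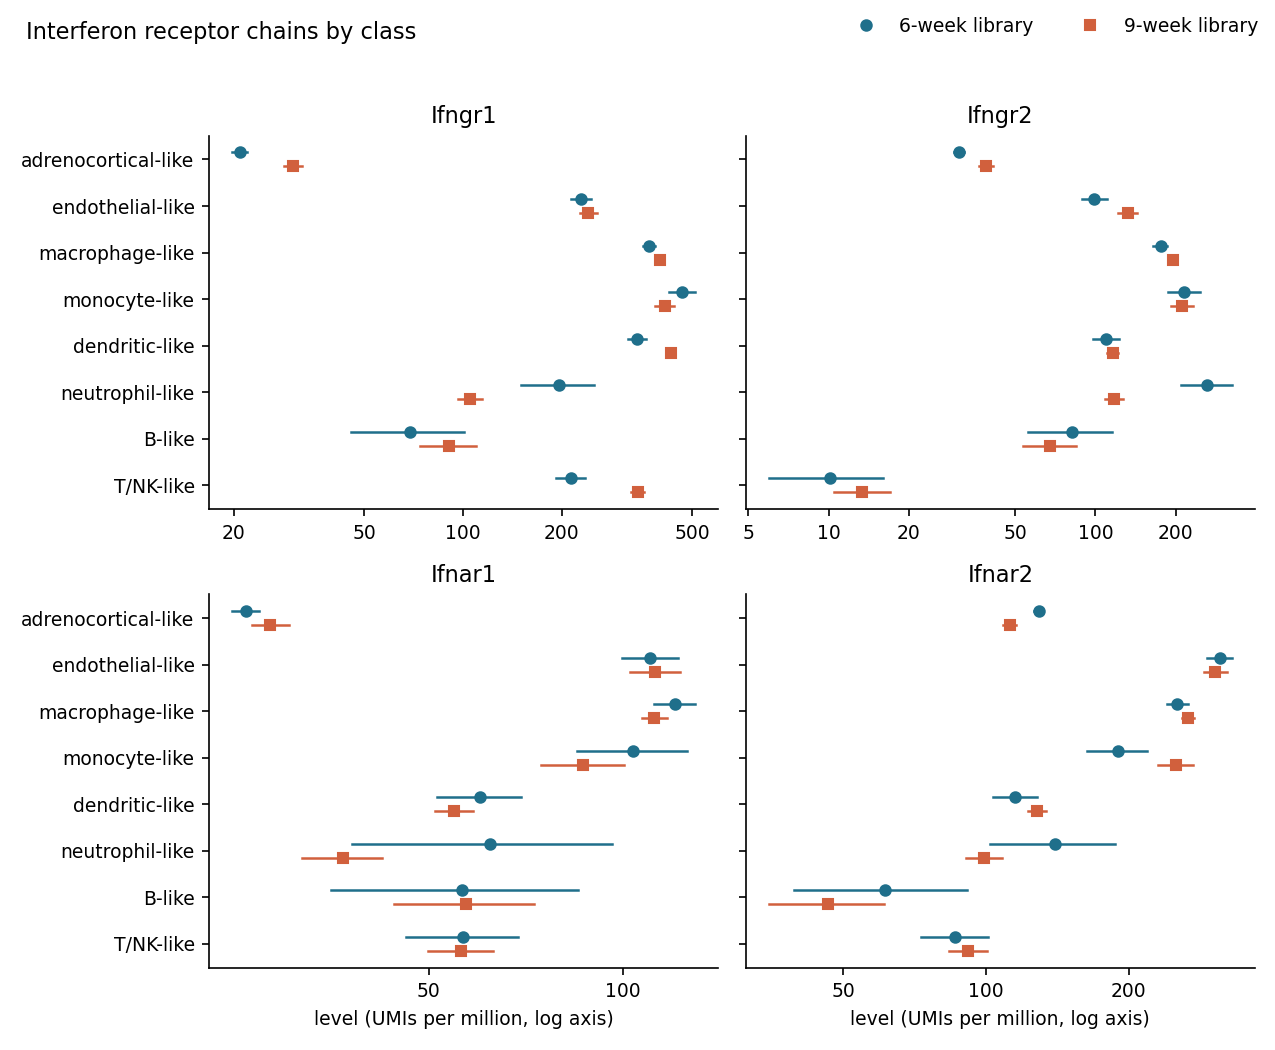
Levels of the 4 receptor chains in CPM (horizontal log axes) in 8 classes (vertical axis) at 6 and 9 weeks, with exact 95% Poisson intervals. T/NK-like cells stood mid-ranked for Ifngr1, at 213 and 341 CPM, and lowest for Ifngr2. Adrenocortical-like cells stood lowest for Ifngr1 and Ifnar1.

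Among the 8 classes, Ifngr1, the ligand-binding chain, was highest in monocyte-like, macrophage-like and dendritic-like cells. Monocyte-like cells had 465 CPM (424 to 509) and 412 CPM (385 to 441), macrophage-like cells 368 and 398 CPM, and dendritic-like cells 339.8 and 430.4 CPM. At 9 weeks the intervals of dendritic-like and monocyte-like cells overlapped, as did those of monocyte-like and macrophage-like cells, so their order is not settled. Endothelial-like cells had 228 CPM (213 to 245) and 241 CPM (227 to 256), and neutrophil-like cells, also myeloid, 196 and 105 CPM. Adrenocortical-like cells were lowest, with 20.9 CPM (19.8 to 22.0) and 30.3 CPM (28.4 to 32.2).

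T/NK-like cells were the class in which Ifngr1 stood past 1.5-fold higher at 9 weeks, with 213 CPM (192 to 236) and 341 CPM (325 to 357). The ratio was 1.60, with limits of 1.43 and 1.79. It was 1.59 in the joined NK-like subclusters, at 347 and 551 CPM, the latter above each of the 8 classes. In the joined Cd3e subclusters it was also 1.59, at 169 and 269 CPM. The NK-like join held 49 cells of subcluster 0 and 82 of subcluster 3 at 6 weeks, and 232 and 112 at 9 weeks. In clusters 14 and 18 of all cells, both matched to NK markers, the ratios were 1.26 (0.989 to 1.62) and 1.23 (0.966 to 1.59). Both lay within 1.5-fold, with limits that included 1, and the part of the changed mix was not tested. Subcluster 1 with Cd4 had 191.5 CPM (137 to 261) and 496 CPM (449 to 546), whereas subcluster 2 had 171 and 128 CPM. Markers of macrophages, a class high in Ifngr1, summed to 265 and 834 CPM in T/NK-like cells, with 9 of 9 higher and none at 0, and their part in this difference was not tested. With clusters weighted alike, each cluster had the same weight at both ages, its share of the class's UMIs averaged over the libraries. The log2 ratio of Ifngr1 in T/NK-like cells was then 0.47 in place of 0.66 and no longer past 1.5-fold.

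Ifngr2, the signalling chain, was nearly missing from these same cells. T/NK-like cells held 18 and 70 Ifngr2 UMIs, or 10.1 CPM (5.97 to 15.9) and 13.4 CPM (10.4 to 16.9), the lowest of the 8 classes at both ages. NK-like subclusters had 0 UMIs in 131 cells and 2 UMIs in 344 cells. Subcluster 2 with Ccr7 and Lef1, which had 1 and 2 Ifng UMIs, held 8 of the 18 Ifngr2 UMIs at 6 weeks (40.3 CPM) and 31 of the 70 at 9 weeks (36.8 CPM), more than any other. Subcluster 9 with macrophage genes held 3 and 15. In T/NK-like cells thinned to 2000 UMIs, both chains were seen together in 0.570% (0.0691 to 2.04%) and 0.584% (0.215 to 1.27%) of cells.

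Cells with both chains were commonest in macrophage-like and monocyte-like cells. After thinning, both were seen in 16.4% (14.0 to 19.0%) and 18.4% (16.8 to 20.1%) of macrophage-like cells, in 18.8% and 19.6% of monocyte-like cells, and in 8.02% (4.74 to 12.5%) and 12.6% (10.6 to 14.9%) of dendritic-like cells. Neutrophil-like cells had 15.4% (5.86 to 30.5%) of the 39 cells deep enough at 6 weeks and 6.84% (4.86 to 9.30%) at 9 weeks, and the 6-week interval overlaps those of the other myeloid classes. Endothelial-like cells had 6.88% (5.28 to 8.79%), which overlaps dendritic-like cells, and 9.07% (7.505 to 10.8%), and adrenocortical-like cells 0.262% and 0.343%. Without thinning the adrenocortical-like shares were 11.1% and 15.9%, at median depths of 15598.5 and 14911 UMIs. The Ifngr2 levels behind these shares were 175 and 195 CPM in macrophage-like cells, 215 and 211 CPM in monocyte-like cells, 99.1 and 132 CPM in endothelial-like cells, and 30.7 and 38.9 CPM in adrenocortical-like cells.

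The type I receptor chains had another order. Among the 8 classes Ifnar2 was highest in endothelial-like cells, at 311 CPM (293 to 329.9) and 305 CPM (289 to 322), followed by macrophage-like cells at 253 and 267 CPM. In adrenocortical-like cells Ifnar2 stood at 129 CPM (126 to 132) and 112 CPM (109 to 116), a ratio of 0.869 with limits that exclude 1 but well within 1.5-fold. Levels of different chains are not compared here, since the values are not per length. Ifnar1 stood at 26.0 and 28.4 CPM in adrenocortical-like cells, and at 120.5 and 112 CPM in macrophage-like cells. Plasmacytoid dendritic-like cells, too few for the 8 classes with 31 and 46 cells, had 360.1 CPM (286 to 447) and 396 CPM (332 to 469) of Ifnar2, above endothelial-like cells with intervals that overlap at 6 weeks and do not at 9 weeks.

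Ligands for these chains were barely captured: of 13 type I interferon genes listed, 2 had any UMI, with 8 UMIs in all at 6 weeks and 3 at 9 weeks. Ifnb1 and the 8 Ifna genes listed had 0 UMIs in either library.

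Neutrophil-like cells gave all 3 of the receptor pairs counted lower, and the class was made up of different clusters at the ages. Ifngr1 went from 196 to 105 CPM, Ifngr2 from 261 to 118 CPM and Ifnar1 from 62.2 to 36.7 CPM in the class, where 33.3% of the genes measured stood past 1.5-fold lower and 25.9% higher. The 6-week class was nearly all cluster 9, with 192 of 193 cells, whereas at 9 weeks 282 cells of cluster 15 and 74 of cluster 27, both led by the granule genes Camp, Ngp and Ltf of immature neutrophils, stood beside 440 cells of cluster 9. Within cluster 9, Ifngr1 was 199 CPM at 6 weeks and 222 CPM at 9 weeks, Ifngr2 266 and 262 CPM, and Ifnar1 63.3 and 109 CPM. The immature clusters had lower levels at 9 weeks, with 61.9 CPM of Ifngr1 in cluster 15 and 107 CPM in cluster 27.

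Irf1 and Socs1 are the early mediators. The 150 bases before each start site are shown because they hold the letters of 2 elements known from interferon-responsive promoters, one in each gene. The sequences are from RefSeq on the build GRCm38.p6, 5′ to 3′ on the gene's strand, Irf1 at chr11:53769864-53770013 on the plus strand and Socs1 at chr16:10785537-10785686 on the minus strand. Capitals mark a gamma-activated sequence (TTCNNNGAA) in Irf1 and 2 overlapping cores of the interferon-stimulated response element (GAAA and GAAA spaced by NN) in Socs1.
Irf1: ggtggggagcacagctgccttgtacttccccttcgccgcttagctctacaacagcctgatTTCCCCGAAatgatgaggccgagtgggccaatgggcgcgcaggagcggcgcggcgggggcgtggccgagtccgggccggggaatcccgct
Socs1: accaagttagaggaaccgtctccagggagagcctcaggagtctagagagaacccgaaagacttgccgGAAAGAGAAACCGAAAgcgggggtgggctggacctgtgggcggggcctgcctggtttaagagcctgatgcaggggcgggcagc

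The Irf1 site begins 90 bases before the start, and the Socs1 sites 83 and 77 bases before it. Searched on both strands in windows of 300 bases, TTCNNNGAA was found in 8.30% of 32851 promoters and the spaced GAAA pair in 3.44%. All 7 genes had a window, Irf1 a pair of them, of which 1 holds the site. TTCNNNGAA also lay in the windows of Ifng, Ifnar1 and Ifnar2, and the spaced GAAA pair, among the 7 genes, only in that of Socs1. A core of the kappa B motif (GGG and CC with 5 bases between), found in 50.8% of promoters, lay in the windows of Ifngr1, Ifngr2, Ifnar2, Irf1 and Socs1. A match of letters is a description and not a site of binding.

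Irf1 was present in every class and lowest in the cortex. Endothelial-like cells had 182 CPM (168 to 197) and 226 CPM (212 to 240.5), monocyte-like cells 178 and 222 CPM, and T/NK-like cells 141 and 143 CPM. Adrenocortical-like cells had 13.1 CPM (12.3 to 14.0) and 22.8 CPM (21.1 to 24.5). Of 16 pairs of Irf1 or Socs1 and a class, 15 were measured, and 2 stood past 1.5-fold higher and 2 lower, against the 7.73% and 6.52% over all genes and classes. The 2 higher pairs were Irf1 in adrenocortical-like cells, where 7.86% of genes stood higher, and Irf1 in B-like cells, at 58.8 CPM (37.3 to 88.2) and 101 CPM (83.4 to 121), where 16.8% did.

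**Figure D3:**
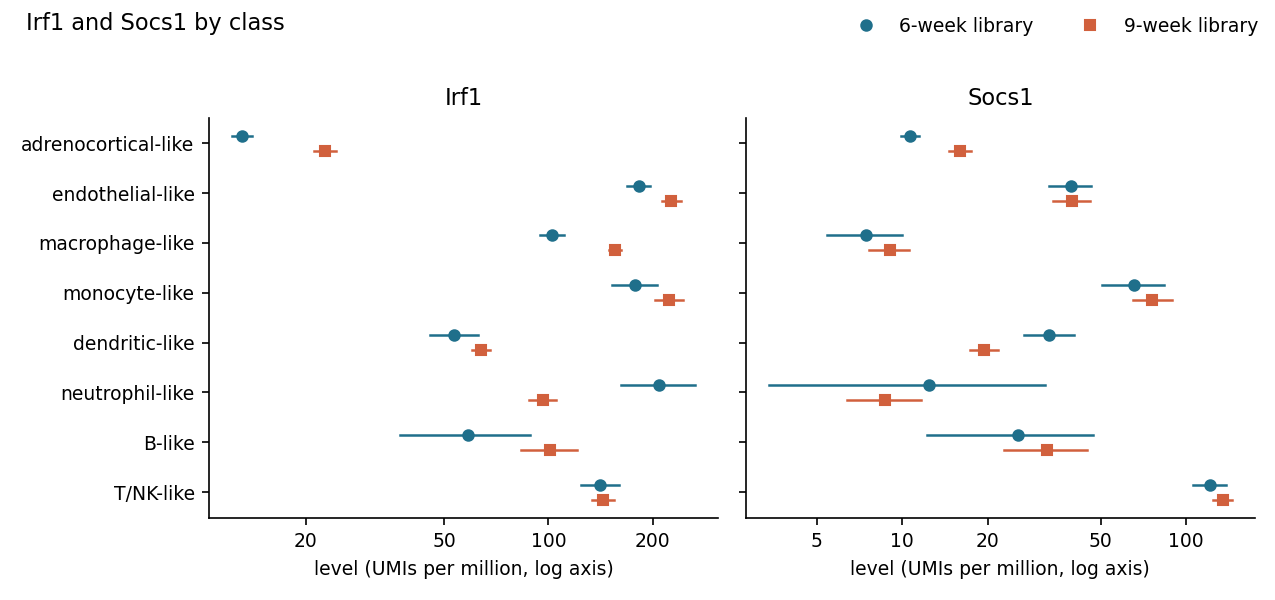
Levels of Irf1 and Socs1 in CPM (horizontal log axes) in 8 classes (vertical axis) at 6 and 9 weeks, with exact 95% Poisson intervals. Irf1 stood at 102 and 156 CPM in macrophage-like cells, and Socs1 was highest in T/NK-like cells at both ages.

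Macrophage-like cells had 102 CPM of Irf1 (94.3 to 111) and 156 CPM (149.9 to 162). The ratio was 1.52, with limits of 1.39 and 1.67. With 5 CPM added this lay just under 1.5-fold, at a log2 ratio of 0.58, in a class where 1.45% of genes stood past it. The largest macrophage cluster, cluster 1, with 458 and 1836 cells led by C1qa, Ms4a7 and Cx3cr1, had 94.4 and 165 CPM, a ratio of 1.75 (1.55 to 1.98). Cluster 10, with the resident macrophage genes Mrc1 and Pf4, had 129 and 157 CPM, and clusters 21 and 24 had 88.6 and 114 CPM, and 63.8 and 56.4 CPM. In neutrophil-like cells Irf1 went from 208 to 96.2 CPM over the class, but within cluster 9 it stood at 212 CPM at 6 weeks and 336 CPM at 9 weeks, a ratio of 1.58 (1.21 to 2.09).

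Irf1 differed over the adrenocortical-like class while its 5 largest clusters each stayed within counting error between the ages. Clusters 2 and 3, with Cyp11b1 or Cyp2f2 and Akr1d1 among their leading genes, held 1410 and 1302 of the 4214 adrenocortical-like cells at 6 weeks and 205 and 69 of 2057 at 9 weeks, and had the lowest Irf1. Irf1 stood at 8.98 and 10.2 CPM in cluster 2, at 6.80 and 5.04 CPM in cluster 3, and at 18.7 and 22.0 CPM in cluster 5, which is led by Cyp11b1. In the clusters with Wnt4, a gene of the outer cortex, Irf1 was 21.4 and 17.5 CPM in cluster 4 and 35.5 and 38.3 CPM in cluster 7. The ratio in each of these 5 clusters had limits that included 1. With clusters weighted alike, the log2 ratio of Irf1 in adrenocortical-like cells was 0.01 in place of 0.61.

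**Figure D4:**
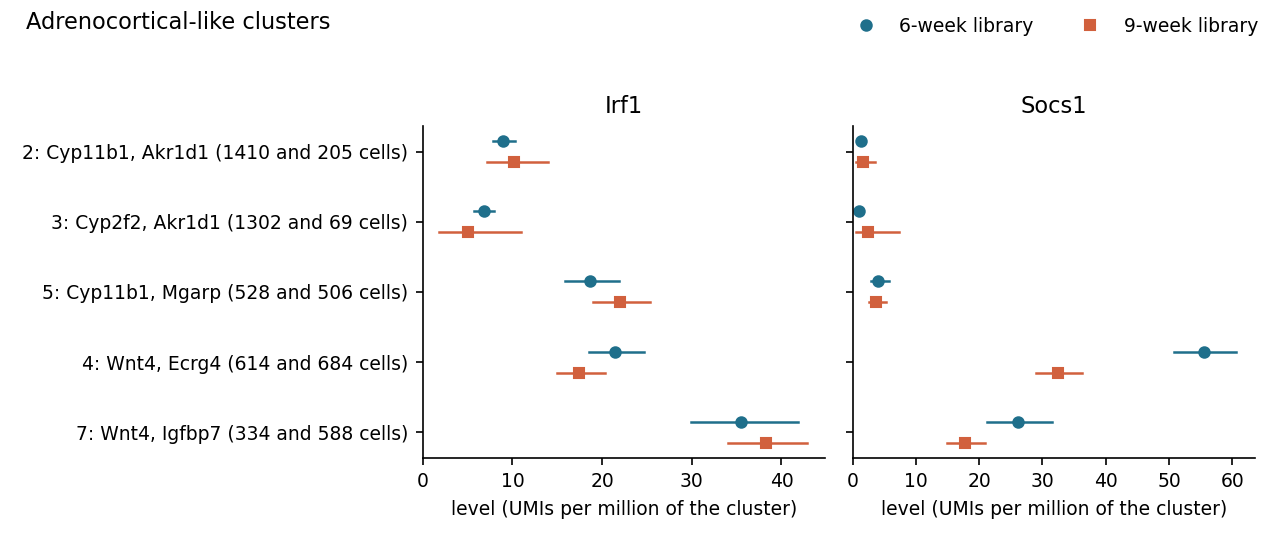
Levels of Irf1 and Socs1 in CPM (horizontal axes) in 5 adrenocortical-like clusters (vertical axis, with leading genes and the number of cells at 6 and 9 weeks), with exact 95% Poisson intervals. Socs1 lay in the 2 Wnt4 clusters, at 55.5 and 26.1 CPM at 6 weeks and 32.5 and 17.7 CPM at 9 weeks.

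Socs1 was highest in T/NK-like cells, the source of Ifng, with 122 CPM (106 to 139) and 134.5 CPM (125 to 145). Monocyte-like cells followed with 65.6 and 76.2 CPM and endothelial-like cells with 39.2 and 39.5 CPM. The monocyte-like level lay in few cells, with 65 UMIs in 20 of 141 cells (14.2%) and 159 UMIs in 34 of 258 cells (13.2%). Macrophage-like cells, which had high levels of both receptor chains, held 45 and 154 Socs1 UMIs, or 7.45 CPM (5.43 to 9.96) and 9.03 CPM (7.66 to 10.6). Dendritic-like cells stood past 1.5-fold lower at 9 weeks, at 33.0 CPM (26.8 to 40.3) and 19.5 CPM (17.4 to 21.8), in a class where 1.84% of genes did. That difference was in cluster 6, at 35.2 and 16.4 CPM, whereas the dividing cluster 17 had 19.1 and 25.02 CPM, a ratio of 1.31 with limits of 0.734 and 2.54.

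In the cortex Socs1 was a gene of the Wnt4 clusters. Cluster 4 had 505 Socs1 UMIs in 614 cells (55.5 CPM) and 314 in 684 cells (32.5 CPM), a ratio of 0.585 with limits of 0.506 and 0.675. Cluster 7 had 26.1 and 17.7 CPM, a ratio of 0.681 (0.525 to 0.885), whereas clusters 2, 3 and 5 stood between 1.07 and 4.10 CPM at both ages. Over the whole class Socs1 was nevertheless higher at 9 weeks, at 10.7 CPM (9.91 to 11.5) and 15.99 CPM (14.6 to 17.5), while clusters 4 and 7 went from 614 and 334 of 4214 cells to 684 and 588 of 2057. With clusters weighted alike at both ages its log2 ratio was -0.46 in place of 0.42. Ifngr1 lay between 19.7 and 24.9 CPM in all 5 clusters at 6 weeks. At 9 weeks it stood at 34.5 CPM (30.9 to 38.4) in cluster 4 and 38.9 CPM (34.7 to 43.5) in cluster 7, against 20.6 CPM (16.3 to 25.7) in cluster 2, 24.4 CPM (16.3 to 35.0) in cluster 3 and 22.5 CPM (19.4 to 25.9) in cluster 5. Ifnar2 was lower in the Wnt4 clusters at both ages, with 89.3 and 100.5 CPM in clusters 4 and 7 at 6 weeks against 136 to 142 CPM in the other clusters, and 93.4 and 94.2 CPM at 9 weeks against 126 to 156 CPM.

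Genes that respond to or carry the signal were described from lists. Of 15 listed kinases, transcription factors and regulators beside the receptor, 11 were measured in adrenocortical-like cells, with 0 past 1.5-fold higher and 1 lower, against 7.86% and 4.04% of the 8593 genes measured. The lower one was Irf8, a transcription factor better known from myeloid cells, at 42.7 and 21.3 CPM. The 10 dendritic cell markers in the class summed to 187 and 92.7 CPM, with none at 0. However, 8 of 10 were higher, so the lower sum does not show the direction of most of them. Dendritic-like cells were 2.66% and 10.3% of the cells, and the part of their RNA was not tested. Jak1, a kinase bound to these receptors, was at 148 and 166 CPM and Jak2 at 15.8 and 16.1 CPM. In macrophage-like cells 13 of the list were measured and 0 were past 1.5-fold either way, where 1.45% of 7881 genes stood higher and 2.61% lower, with Stat2, of the type I interferon pathway, at 52.8 and 77.1 CPM.

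**Figure D5:**
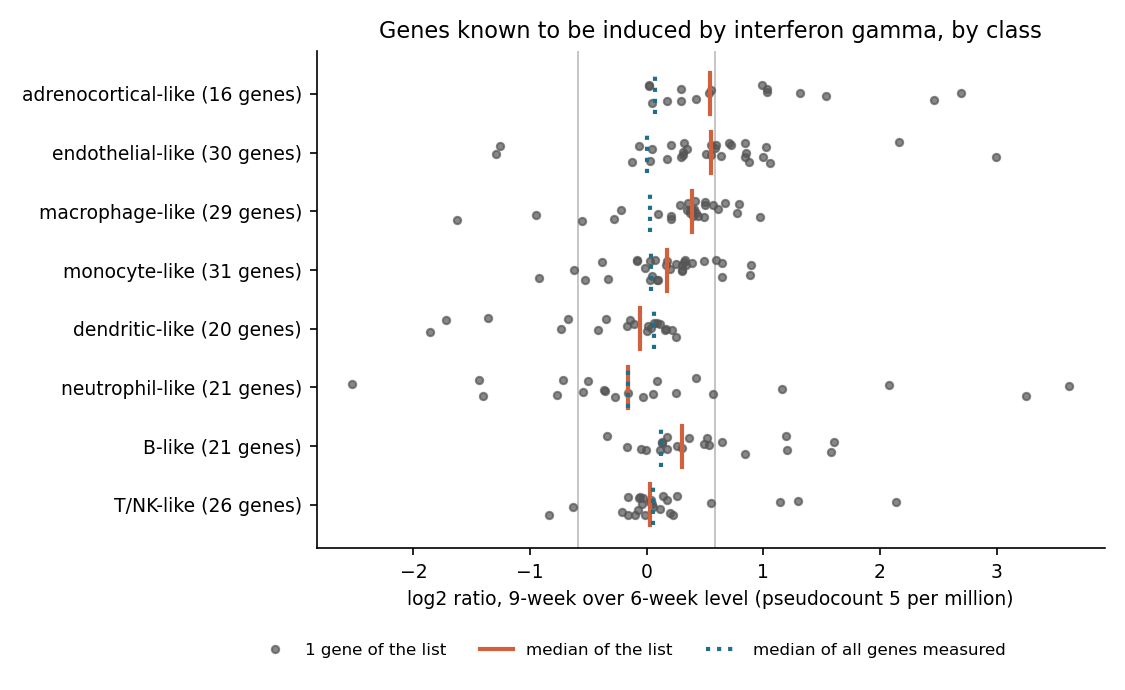
Log2 ratio of the 9-week over the 6-week level (horizontal axis, 5 CPM added) of each measured gene of a list of 36 genes known to be induced by interferon gamma, in 8 classes (vertical axis). Points are genes, red bars the list's median and dotted bars the median of all genes measured. The list medians were 0.55 in adrenocortical-like and endothelial-like cells and 0.03 in T/NK-like cells; grey lines mark 1.5-fold.

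Of the 36 genes listed as induced by interferon gamma, 16 were measured in adrenocortical-like cells, and 7 stood past 1.5-fold higher and 0 lower, against 7.86% higher and 4.04% lower of all genes measured there. These were Cd74 (27.2 and 204 CPM) and H2-Aa (10.6 and 80.8 CPM) of antigen presentation on MHC class II, Psmb8 (65.2 and 199 CPM) and Psmb9 (53.8 and 112 CPM) of the immunoproteasome, B2m (356 and 894 CPM) and H2-K1 (620.3 and 1274 CPM) of MHC class I, and Iigp1 (25.1 and 56.6 CPM), an immunity-related GTPase. The list's median log2 ratio was 0.55, against 0.07 over all genes measured. Over the signalling and induced lists together, 7 genes stood higher as reported, 6 with free RNA subtracted and 6 with clusters weighted alike. In the same class the 10 T cell markers summed to 2.08 CPM at 6 weeks, with Cd4 at 0, and 18.9 CPM at 9 weeks, with all 10 higher. The 8 NK markers summed to 0.568 CPM, with Klra8 and Klra4 at 0, and 16.2 CPM, with Klra4 at 0 and 7 higher. The 9 macrophage markers summed to 318 and 364 CPM, with 8 higher, and the 11 neutrophil markers to 5.97 CPM, with Ly6g, Ngp and Ltf at 0, and 176 CPM, with 11 higher. Beyond the subtraction, the part of RNA from other cells was not tested. The other scaling, by trimmed means, shifted all log2 ratios by 0.17 in this class, with 7 list genes higher.

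Endothelial-like cells had 30 of the 36 genes measured, 13 past 1.5-fold higher and 2 lower, against 1.33% higher and 1.29% lower of 8885 genes. Cd74 stood at 122 and 1009 CPM, H2-Aa at 72.5 and 343 CPM, and Ciita, the switch of MHC class II genes, at 5.60 and 17.0 CPM. Iigp1 had 388 and 703 CPM and Igtp 87.6 and 165 CPM. The chemokine genes Cxcl9 and Cxcl10, which draw in T cells, stood lower, at 42.8 and 14.5 CPM and at 88.2 and 34.1 CPM. Macrophage markers in endothelial-like cells summed to 1954 and 1945 CPM, with none at 0. Of these, 8 of 9 were higher, so the sum does not show the direction of most of them. T cell markers summed to 4.48 CPM, with Trac, Cd4, Cd8a and Cd8b1 at 0, and 21.8 CPM, with 10 of 10 higher. Neutrophil markers there summed to 13.4 CPM, with Retnlg, Mmp8, Mmp9, Ly6g, Camp, Ngp and Cxcr2 at 0, and 490.1 CPM, with 11 of 11 higher. The part of these cells in the list's difference was not tested.

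In macrophage-like cells 29 of the list were measured, with 5 past 1.5-fold higher and 2 lower, against 1.45% and 2.61% of genes, and a median log2 ratio of 0.39 against 0.03. Gbp4 (12.7 and 29.8 CPM), Ciita (116 and 201 CPM) and Cd74 (15651 and 27117 CPM) were among the higher genes, and Cxcl9 (202 and 62.1 CPM) and Cxcl10 (115.5 and 57.3 CPM) were the lower ones. T/NK-like cells had 26 measured, 3 higher and 2 lower, against 3.46% and 3.03% of genes, with a median of 0.03 against 0.05, and dendritic-like cells 20 measured, 0 higher and 5 lower, with a median of -0.05 against 0.06, where 1.25% of genes stood higher and 1.84% lower. Monocyte-like cells had 31 measured, 5 higher and 2 lower, against 6.53% and 4.26% of genes, and B-like cells 21 measured, 6 higher and 0 lower, against 16.8% and 5.78%. The list's median lay farthest above that of all genes in the cortical, endothelial and macrophage classes. Over each of these classes, the 4 receptor chains differed by less than 1.5-fold. Within the cortical class, Ifngr1 in cluster 7 stood past it, at 24.1 and 38.9 CPM, a ratio of 1.61 (1.28 to 2.05). The ratio was 1.38 (1.17 to 1.65) in cluster 4, and in clusters 2, 3 and 5 its limits included 1. Any part of receptor levels in the list's difference was not tested.

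Across the 16 profiles of 8 classes at both ages, the genes most like Ifng were Podnl1, Tox, Sytl2, Cd3e and Trat1, with Pearson r from 0.993 to 0.996. Ifng had 80.6 and 79.0 CPM in the T/NK-like profiles and at most 2.63 CPM in the others. Its r with a gene therefore mostly restates how far that gene is confined to T/NK-like cells or missing from them. Among the 7 genes themselves, Socs1 had an r of 0.71 with Ifng and Ifngr2 an r of -0.76, and Irf1 had its highest r with Ifnar1, 0.78, followed by Ifngr1 at 0.74. Genes most like Irf1 included Lgals9, Dtx3l, H2-D1 and Uba7, with r from 0.921 to 0.956, and those most like Socs1 included Ptpn2, a phosphatase that acts on the same kinases, with an r of 0.887. Profiles of 1 library share its depth and free RNA, so these values are descriptions of 16 points that are not independent.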

How the data were processed

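The authors deposited matrices of counts, whole-number UMIs per gene and cell barcode, made with Cell Ranger 6.0.1 on mm10, per the submitters' processing notes, from Chromium 3′ v3.1 libraries, per the labels' protocols. The totals over all barcodes were 97001752 and 99728879 UMIs. The notes also name Seurat, but no deposited file gives cell types, so they were rebuilt and may differ from the study's.

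Barcodes with under 500 genes (161 and 221) or over 25% mitochondrial UMIs (111 and 64) were left out, as were doublets called in each library (475, 5.52%, and 586, 5.57%). Leiden clustering (scanpy 1.11.5, leidenalg 0.10.2, 2000 variable genes without the 7 genes and the lists, 30 components, resolution 1) gave 41 clusters, named from at least 3 markers. The 7 genes and all lists were chosen with earlier results of these data known. These naming choices were made after seeing the data: a looser limit on a second name for myeloid clusters (0.65 in place of 0.5), the reference percentile of 25 for subclusters, and the joined NK-like and Cd3e subclusters, with the joins that leave out subclusters 8 and 9 or the richest cell. The comparison took in the 8 classes that held 50 or more cells at both ages. Genes measured had at least 10 CPM in 1 library and 10 UMIs in all. Levels came from the UMI sums of a class in a library, and log2 ratios took 5 CPM as pseudocount. No test between ages was possible with 1 library per age, so the count models for replicated data were not used. Shares have exact Clopper-Pearson intervals, and the ratio limits are exact for a pair of Poisson counts; code was tested on simulated data. All 7 genes are described; of each list, up to 5 genes with the largest ratio each way past 1.5-fold are named, and any other member with its values, and among genes with at least 20 CPM in 1 profile those of the 5 most like each gene by Pearson r of log2(CPM + 5). Free RNA, estimated at 0.871 to 5.28% of a class's UMIs, was subtracted as an alternative. Other alternatives changed the filters, clustering, pseudocount, scaling and the weight of clusters, which was then the same at both ages.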

Additional observations from a re-analysis of the deposited data

How the results depend on the processing

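Each count below is of the genes or gene-class pairs past 1.5-fold, and the cause of a change was not tested unless stated. The log2 ratio of Ifng in T/NK-like cells, -0.03, ranged from -0.10 to 0.02 over 11 alternatives. With doublets kept, T/NK-like cells held 86.0% and 78.1% of Ifng UMIs, 2 receptor pairs stood higher in place of 1, and in adrenocortical-like cells 12 list genes stood higher in place of 7 and 0 lower in place of 1. Receptor pairs counted lower, 3 as reported, were 0 with at least 1000 genes per cell (6 classes left), 1 with trimmed mean scaling and 0 with clusters weighted alike. For Irf1 and Socs1, 2 pairs stood higher as reported; 4 did with at most 10% mitochondrial UMIs and with Leiden resolution 0.5, and 1 with a pseudocount of 10 CPM, trimmed means or free RNA subtracted. Pairs of these genes counted lower, 2 as reported, were 1 with at least 1000 genes per cell, Leiden resolution 2, a pseudocount of 10 CPM or clusters weighted alike. List genes lower in macrophage-like cells were 1 in place of 2 with the members and lists allowed in clustering. In adrenocortical-like cells, in place of 1, they were 2 with a pseudocount of 1 CPM or trimmed means, 0 with clusters weighted alike and 3 with no minimum. Trimmed means shifted log2 ratios by 0.17 in adrenocortical-like and -0.39 in neutrophil-like cells. Weighting clusters alike, which in neutrophil-like cells uses only cluster 9, reversed Ifngr1 (log2 ratio 0.15), Ifnar1 (0.74) and Irf1 (0.65) there. Irf1 in adrenocortical-like cells fell under 1.5-fold with a pseudocount of 10 CPM (0.50), trimmed means (0.48), free RNA subtracted (0.55) and clusters weighted alike (0.01). Irf1 in macrophage-like cells passed it under 5 alternatives, at 0.60 to 0.62. No paired analysis was possible because each age has 1 library. With few UMIs, as for Ifng outside T/NK-like cells or Ifngr2 within them, differences between the ages were not detectable at this depth.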
